A study of Mus musculus with 6 samples.

Results

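Kit and Kitl, a receptor and its ligand, were followed on all 6 bead arrays of a mouse study, each read with RNA of luminal epithelium isolated from the uterus at 3.5 days post coitum. These 2 of 28877 gene names on the array were read by every probe that the array annotation names Kit or Kitl, which gave 6 of 45281 probes, 3 for each gene. They were chosen by the higher Kit signal of the knockout arrays in an earlier look at these values. The Kit and Kitl values below are therefore a description. Where a fit over all genes included Kit or Kitl, its outcome is stated but is no independent test of them. Per the labels, 3 samples were Control (arrays A, B and C) and 3 were conditional knockouts of Alk3, here CKO (arrays D, E and F). Alk3 is another name of Bmpr1a, through which bone morphogenetic proteins (BMPs) signal. The CKO females were Alk3flox/flox Pgrcre/+, with loxP sites around exon 2 of Alk3 and Cre knocked in at the progesterone receptor locus, which is active in epithelium, stroma and muscle of the uterus. The labels give the other group only as Control, with no alleles, and put all mice on a hybrid background of C57BL/6J and 129S5/SvEvBrd. They give no ages and do not say that each array held RNA of a separate animal, so the SDs may be technical in part. All 6 arrays shared 1 chip, with Control at positions A to C and CKO at D to F, so the effect of position cannot be told apart from that of group. How the epithelium was separated is not in the labels, whose protocol speaks of frozen, homogenised uterine tissue. Array E stood apart, with a mean correlation of 0.936 to the other arrays over all genes, where the rest had 0.953 to 0.970. Kit values are therefore also given without it.

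Kit is a type III receptor tyrosine kinase, and Kitl, also called stem cell factor, is its ligand. Kitl is made as a membrane-bound protein from which proteases release a soluble form; its binding pairs Kit receptors, which then phosphorylate each other and recruit adaptors, PI3 kinase, the Ras to ERK cascade and JAK and STAT proteins. The pair is best known from mast cells, melanocytes, germ cells, blood progenitors and the pacemaker cells of the gut, and Kit is also found in some glandular epithelia.

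The stretches just before the start sites of both genes are shown because the receptor gave a strong signal in this epithelium and the ligand none above background. Each is the 250 bases before the first annotated start, 5′ to 3′, from RefSeq on GRCm38.p6, and both genes matched. Kit has 2 starts in that table, close together, and the first was used. Capitals mark matches to 5 motifs searched on both strands: GATAA (core of GATA factor sites), CANNTG (the E-box bound by MITF and TAL1), GGGCGG (the GC box bound by SP1), and GGCGCC and CAGAC (elements bound by SMAD proteins, which carry the BMP signal).
Kit, chr5:75574737-75574986, plus strand: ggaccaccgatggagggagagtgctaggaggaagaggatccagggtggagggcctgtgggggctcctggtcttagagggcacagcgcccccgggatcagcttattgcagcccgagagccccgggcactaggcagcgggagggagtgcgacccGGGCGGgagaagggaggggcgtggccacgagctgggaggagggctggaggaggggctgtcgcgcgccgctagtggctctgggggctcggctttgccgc
Kitl, chr10:100015571-100015820, plus strand: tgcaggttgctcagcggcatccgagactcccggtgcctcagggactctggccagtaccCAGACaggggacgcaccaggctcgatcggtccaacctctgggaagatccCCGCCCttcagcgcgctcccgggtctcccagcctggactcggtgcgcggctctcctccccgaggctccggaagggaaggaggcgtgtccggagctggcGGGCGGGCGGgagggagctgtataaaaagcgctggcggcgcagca
The Kit stretch held 1 match, a GGGCGG whose first base lies 98 bases before the start. The Kitl stretch held 3 GGGCGG matches, at 143, 45 and 41 bases, of which the last 2 overlap each other, and 1 CAGAC at 192 bases. Among 27025 promoter stretches of the same length, 32.9% held a GGGCGG, 42.1% a CAGAC, 66.0% a CANNTG, 23.0% a GATAA and 9.54% a GGCGCC. Kit had 17 CpG dinucleotides in its stretch and Kitl 23, where the median over all stretches was 6. These matches describe letters in a window and say nothing of binding.

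Kit signal was higher on every CKO array than on every Control array by the probe made to the RefSeq transcript of Kit (ILMN_1246876). Its normalised signal on the log2 scale was 10.19 on array A, 9.43 on B and 9.16 on C among Control, and 11.66 on D, 12.31 on E and 11.43 on F among CKO. The lowest CKO array lay 1.23 above the highest Control array, a gap wider than the range within Control (1.04) or within CKO (0.88). The CKO mean was 11.80 ± 0.46 (SD, n = 3). The Control mean was 9.59 ± 0.54 (SD, n = 3), which gave a log2 difference of 2.21, or 4.61-fold. The order of the arrays was E, D, F, A, B and C. In that order D and F, and B and C, differed by less than the SD of their group, while E lay above D, and A above B, by more than it.

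**Figure D1:**
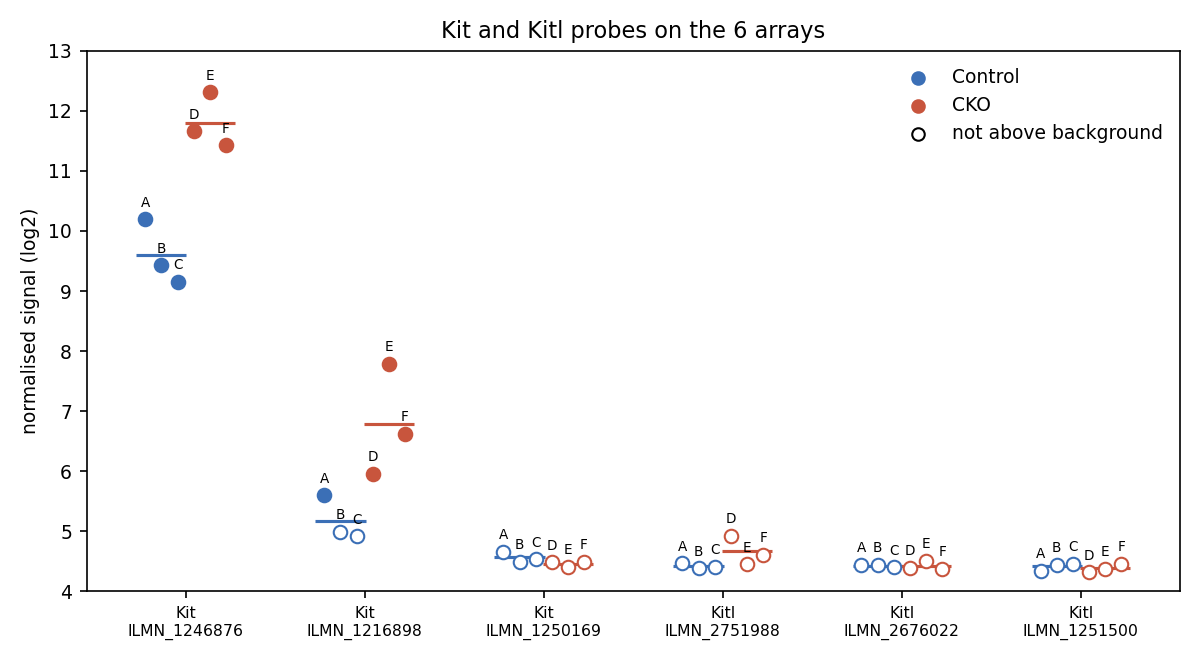
Normalised signal (log2) of each Kit and Kitl probe on the 6 arrays, Control in blue and CKO in red, with bars at the group means; open circles are values not above background. Kit separates the groups by ILMN_1246876, from 9.16 to 10.19 in Control and from 11.43 to 12.31 in CKO, and all 3 Kitl probes are open circles on every array.

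The same separation was present before any normalisation. Raw intensity of ILMN_1246876 was 1338, 808 and 613 on Control arrays A, B and C, and 2942, 4956 and 2679 on CKO arrays D, E and F. Each of these is a mean over 47 to 56 beads, and the standard error over beads was 3.14% to 3.80% of the signal. The spread between arrays of a group, with raw SDs of 375 in Control and 1246 in CKO, was therefore far larger than the bead error. The authors' deposited processed intensities for this probe were 1156, 672 and 556 in Control and 3213, 5072 and 2739 in CKO, a ratio of means of 4.62.

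A dimmer Kit probe, ILMN_1216898, made to a cDNA clone, ranked CKO above Control as well, with less certainty in the measurement. Its normalised log2 signal was 5.60, 4.99 and 4.92 on arrays A, B and C and 5.96, 7.79 and 6.63 on D, E and F. The CKO mean of 6.79 ± 0.93 (SD, n = 3) exceeded the Control mean of 5.17 ± 0.37 (SD, n = 3) by 1.62. It was above background (detection p-value under 0.05) on all 3 CKO arrays and on 1 Control array, A. The raw intensities of A and D were equal at 114.5, so the separation of these arrays by 0.36 on the log2 scale arose in the normalisation. Array E, the highest by both probes, set much of the CKO mean here: without E the difference was 1.12, against 1.95 for ILMN_1246876.

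The remaining Kit probe, ILMN_1250169, made to another cDNA clone, was not above background on any array. Its raw intensity ran from 69.1 to 84.3 and its detection p-value from 0.235 to 0.759. It gave no information on either group. The files do not give probe sequences or positions, so which part of the Kit transcript each probe reads is not known here.

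**Figure D2:**
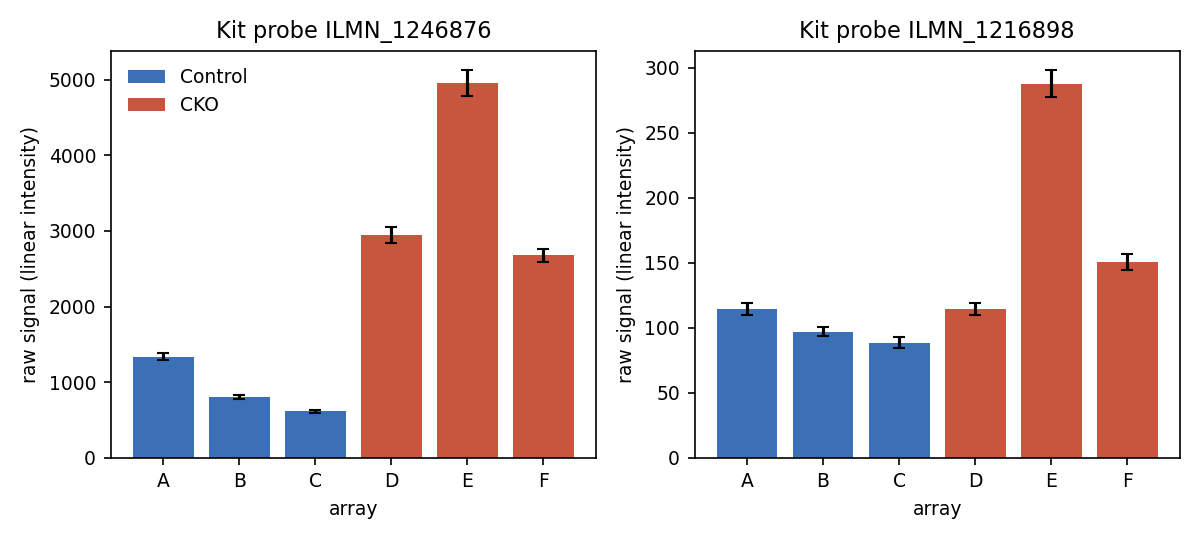
Raw intensity (linear scale) of both Kit probes that were above background, by array, with the standard error over beads as error bars; Control in blue, CKO in red. For ILMN_1246876 the CKO arrays lie between 2679 and 4956 and the Control arrays between 613 and 1338; for ILMN_1216898 arrays A and D are equal at 114.5.

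Kitl, the ligand, was not above background on any of the 6 arrays by any of its 3 probes. A pair of these were made to the RefSeq transcript. The first of them, ILMN_2676022, had raw intensities from 65.7 to 76.3 and detection p-values from 0.467 to 0.870. The other, ILMN_2751988, had raw intensities from 70.2 to 86.2; its lowest detection p-value, 0.0716, came from CKO array D. The clone-based probe, ILMN_1251500, ran from 62.6 to 76.1, with detection p-values from 0.610 to 0.975. No fold between CKO and Control is given for Kitl, since both groups were below background. Kitl RNA was not detectable at this signal over background, which does not show that it is absent.

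Of the 6 probes, 2 passed the filter for dim probes (above background on at least 3 arrays), and both were Kit probes. The dimmer of them passed on the 3 CKO arrays and 1 Control array. Both had CKO arrays entirely above Control arrays, as did 5.4% of the 17291 probes kept. By genes, 5.64% had CKO wholly above Control and 5.01% wholly below, 10.6% in all. In the fit over 11940 genes by limma, with Benjamini-Hochberg adjustment over all of them and a threshold of 0.05, Kit was not called, and Kitl was not bright enough to be tested. That fit called 0.0168% of genes as higher in CKO (2 genes, or 1 without A and 0 without any other single array) and 0 as lower, where 324 and 239 had an unadjusted p under 0.05. By size the Kit difference ranked 9 of 11940 signed differences. Since Kit was chosen for its higher CKO signal, this rank and the separation by its probes are descriptions only. The SD of Kit over Control arrays, 0.54, was above that of 88.1% of genes, whose median was 0.22, and its SD over CKO arrays, 0.46, was above that of 69.9%, whose median was 0.31. The targeted gene, Bmpr1a, differed by -0.60 with an SE of 0.22 and was not called; whether its probes lie in the deleted part is not known, so this checks nothing about the deletion. Pgr differed by -0.43 with an SE of 0.56, a sign that turned without array B or E.

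The other type III receptors gave little signal in this epithelium. Csf1r, the receptor for the macrophage growth factors CSF1 and IL34, had log2 signals of 5.09, 5.76 and 5.33 in Control and 6.15, 5.38 and 6.02 in CKO, a difference of 0.46 (SE 0.28) with groups that overlapped. It was 0.69 without array E and 0.31 without A. Flt3, a receptor of blood progenitors, was below background on all arrays. Pdgfra and Pdgfrb, the receptors for platelet-derived growth factors and known from stroma and vessel walls, were too dim to be tested: Pdgfra exceeded background on B by one probe and on E by the other, and Pdgfrb on C.

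Among the ligands of this family, Pdgfa was the clearest, with 10.91, 10.71 and 10.52 in Control and 10.65, 11.35 and 10.70 in CKO, a difference of 0.19 (SE 0.24) that fell to -0.039 without array E. Pdgfb differed by 0.34 (SE 0.30) and Pdgfc by 0.00083 (SE 0.23), both with overlapping groups and a sign that did not hold under every alternative. Csf1 and Il34 were above background on arrays A and E only, and Flt3l and Pdgfd on none. Of the 11 listed receptors and ligands besides Kit and Kitl, 4 were measured and 0 passed, with a median difference of 0.26 where all genes had -0.011.

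No gene of the 8 lists around Kit passed the test. In all of them together, 94 genes other than Kit were measured and 0 were called by limma's adjusted p, while 4 had an unadjusted p under 0.05. Over all 11940 genes, 2 were called (0.0168%) and 563 had an unadjusted p under 0.05. With so few genes called anywhere, 0 among 94 is no result about these lists. The groups did not overlap for 3 genes higher and 3 lower, 6.38% together, against 10.6% of all genes. The lists were chosen with earlier results of these data known.

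Proteins that act next to the active receptor had 25 of 33 members measured, 13 higher and 12 lower, with a median of 0.01. Vav2, a guanine nucleotide exchange factor, was the member whose groups did not overlap: 7.98, 8.09 and 8.55 in Control and 7.84, 7.22 and 7.11 in CKO, a difference of -0.82 (SE 0.27, limma's adjusted p 0.976). Its 3 other probes were below background on all arrays. The adaptor gene Grb2 differed by -0.04 (SE 0.16), the adaptor Shc1 by 0.26 (SE 0.19), the PI3 kinase subunit Pik3r1 by 0.18 (SE 0.19) and the phosphatase Ptpn11 by 0.01 (SE 0.17). The Src family kinase Lyn, the adaptor Gab2 and Btk, which act in mast cell Kit signalling, were below background on all arrays.

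The Ras, ERK and Akt relay had 19 of 22 members measured, 13 higher and 6 lower, with a median of 0.06. Mapk3, which encodes ERK1, lay at 7.72, 7.47 and 7.85 in Control and 7.07, 7.47 and 7.27 in CKO. The groups came within 0.01 of each other, and the difference was -0.41 (SE 0.19). Its other probe, dimmer and above background on all arrays, differed by -0.54.

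Genes known to rise when ERK is active had 12 of 21 members measured, 9 higher and 3 lower, with a median of 0.21, and 0 passed. Dusp4, a phosphatase that switches ERK off, had log2 signals of 5.36, 6.44 and 4.72 in Control and 7.25, 6.99 and 7.06 in CKO. Every CKO array lay above every Control array, and the difference was 1.59 (SE 0.42, limma's adjusted p 0.976). Another Dusp4 probe differed by 1.10, a further one by -0.080, and the last never exceeded background, so its probes disagreed. Egr3, an early growth response transcription factor, had 6.89, 7.33 and 7.55 in Control and 8.78, 8.30 and 7.59 in CKO, a difference of 0.97 (SE 0.34, limma's adjusted p 0.976); its other probe, above background on B and F only, differed by -0.12. With array weights the Egr3 difference was 0.49 and that of Dusp4 1.02, and the mean over the measured Dusp4 probes gave 0.87. Dusp6, the phosphatase most closely tied to ERK activity, differed by 0.17 (SE 0.28), Egr1 by 0.25 (SE 0.18), Fos by 0.17 (SE 0.20), Spry4 by -0.04 (SE 0.20) and Etv5 by 0.34 (SE 0.70), all with overlapping groups.

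Genes that limit Kit had 13 of 19 members measured, 7 higher and 6 lower, with a median of 0.05. Socs3, an inhibitor of cytokine receptors, had 9.55, 9.20 and 8.23 in Control and 9.61, 11.26 and 9.94 in CKO. The groups did not overlap, by a margin of under 0.1 between A and D, and the difference was 1.28 (SE 0.52, limma's adjusted p 0.976), or 0.78 without array E. Cblb, a ubiquitin ligase of activated receptors, differed by -0.25 (SE 0.16) near background, or by -0.16 without array B. Cbl, the ligase best known for Kit, was below background on all arrays.

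**Figure D3:**
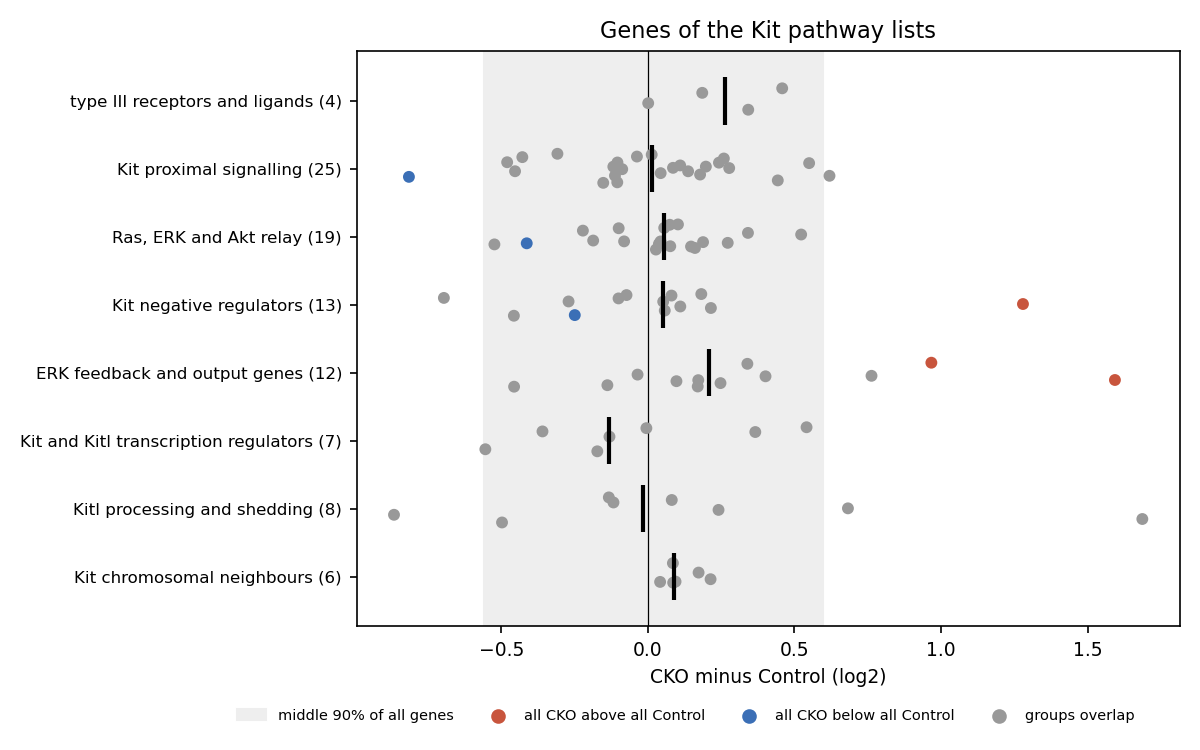
CKO minus Control difference (log2) of each measured gene in 8 lists around Kit, Kit itself left out, with a black bar at each list's median and the middle 90% of all 11940 genes shaded; red and blue points are genes whose groups do not overlap, grey points overlap. Dusp4 (1.59), Socs3 (1.28) and Egr3 (0.97) are the red points and Vav2 (-0.82), Mapk3 (-0.41) and Cblb (-0.25) the blue ones.

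Factors known to drive Kit in other cell types were mostly not above background here. Of 21 listed, 7 were measured, 2 higher and 5 lower, with a median of -0.13 and 0 that passed. Gata1, Tal1, Lyl1, Mitf, Etv1, Fli1 and Sox10, which drive Kit or mark Kit-bearing cells in blood, melanocytes or gut, were below background on all arrays. Gata2, a factor of mast cells that also acts in the progesterone response of the uterus, was bright: 12.70, 13.37 and 13.88 in Control and 13.63, 11.20 and 13.44 in CKO. It was at its lowest on array E, where Kit was at its highest, and the difference was -0.55 (SE 0.68). Sp1 differed by -0.36 (SE 0.24) and Lmo2 by 0.54 (SE 0.29), with overlapping groups.

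Proteases and inhibitors that act on Kitl or on the Kit ectodomain had 8 of 14 members measured, 4 higher and 4 lower, with a median of -0.02. Adam17, the main sheddase of the pair, differed by -0.12 (SE 0.17) and Adam9 by -0.13 (SE 0.19). Mmp9, which releases Kitl in bone marrow, was too dim to be tested. Timp1, a metalloprotease inhibitor, had the widest difference of the list, 1.69, with 9.83, 9.31 and 6.14 in Control and 9.42, 11.17 and 9.74 in CKO. The groups overlapped, and Control array C set much of the difference.

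Genes that lie beside Kit on its chromosome did not share its difference. Pdgfra and Kdr, receptor kinases on either side of Kit in the RefSeq order, were respectively too dim to test and at 0.04 (SE 0.29). Chic2 differed by 0.09 (SE 0.24), Srd5a3 by 0.17 (SE 0.18) and Clock by 0.21 (SE 0.36). The 6 of 13 listed neighbours that were measured lay between 0.04 and 0.21, and all 6 had overlapping groups.

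Markers of cell types that carry Kit were then set beside it. This is bulk RNA, in which more cells of a type and more RNA per cell cannot be told apart. Of 11 mast cell markers on the array, 7 (Cpa3, Tpsb2, Tpsab1, Mcpt4, Mcpt8, Ms4a2 and Il1rl1) were below background on every array, Cma1 was above it on E alone and Fcer1a on B and C. The remaining 2, Gata2 and Hdc, the latter a histamine-forming enzyme also known from uterine epithelium, were bright in both groups, and the summed signal of these 2 ran from 28670 to 39459 in CKO and from 30885 to 40260 in Control. All 7 melanocyte markers were too dim to test, and 5 of them were below background on every array. Of 5 markers of interstitial cells of Cajal or telocytes, 4, among them Ano1 and Etv1, were below background on every array, and Cd34 differed by -0.03 (SE 0.25). Of 9 oocyte and embryo markers, 8 were below background on every array, and Pou5f1 differed by 0.11 (SE 0.23). Among blood progenitor and innate lymphoid markers, Ptprc, Gata3 and Spi1 were below background on every array, while Cd34, Ly6a, Rora and Id2, which other cells also express, were measured. Id2 differed by -0.96 (SE 0.27) and Rora by 1.07 (SE 0.62), each with groups that did not overlap and each by the brightest of 3 probes. Rora had 9.18, 9.29 and 6.99 in Control and 9.39, 9.97 and 9.30 in CKO, so Control array C set much of its difference. The summed signal of the 4 measured markers overlapped between groups (1597 to 2802 in CKO, 1956 to 2855 in Control).

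The labelled tissue carried its epithelial markers. Krt8, Krt18, Cdh1 and Cldn4 were above background on all arrays and differed by -0.14 (SE 0.19), -0.14 (SE 0.22), -0.03 (SE 0.21) and 0.10 (SE 0.25). Krt19 differed by -0.92 (SE 0.67), with 10.48, 11.30 and 11.78 in Control and 11.13, 8.77 and 10.91 in CKO, so that E was the lowest. Epcam was below background on all arrays. The mean deviation of the pan-epithelial list was -0.36 on E, the lowest of the 6 arrays and the one where Kit was highest, and lay between -0.04 and 0.16 on the others. Krt19 set most of the value on E. Krt8 and Cdh1 were also at their lowest there, while Krt18, Cldn4 and Cldn7 lay above their own means. The summed signal of the 6 measured pan-epithelial markers ran from 24402 to 28403 in CKO and from 24945 to 30019 in Control, and that of 5 luminal markers from 11884 to 16837 and from 13574 to 19874. Among the latter Ltf, lactoferrin, an oestrogen-responsive secreted protein, had groups that did not overlap: 11.81, 13.34 and 12.96 in Control and 11.74, 11.21 and 11.77 in CKO, a difference of -1.13 (SE 0.41).

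Stroma, vessel and muscle markers were present and varied within CKO. Of 7 measured stroma markers, 5 were higher in CKO and 2 lower, with a median difference of 0.51, and all had overlapping groups. Col1a1 (1.23) and Thy1 (1.08) had the widest differences. Dcn, a matrix protein of stroma, was the brightest and among the 2 lower, at -0.15. It had 11.11, 10.73 and 11.20 in Control and 12.36, 10.73 and 9.50 in CKO. The mean deviation of 7 stroma markers, on the log2 scale, was highest on D (1.03), next on E (0.57) and lowest on F (-0.85), where Control spanned -0.35 to -0.11. That of 6 endothelium markers was 0.28, 1.05 and -0.79 on D, E and F, against -0.37 to -0.03 in Control. Both lists were thus higher on D and E than on any Control array, and lower on F; Kit was 11.66, 12.31 and 11.43 on these arrays. Their summed signal ran from 996 to 6180 for stroma and from 168 to 750 for endothelium in CKO, and from 2080 to 2767 and from 230 to 292 in Control. Smooth muscle markers, 2 measured of 5, were highest on Control A (1.20) and lowest on F (-1.06), with Myh11, Cnn1 and Tagln below background on every array, and a summed signal of 155 to 847 in CKO and 161 to 2070 in Control. Glandular markers, 3 measured of 6, were highest on E at 1.30, with a summed signal of 173 to 1636 in CKO and 206 to 639 in Control. Prss29, at 10.53 on E, set both high values there, and was above background on 1 CKO array and 2 Control arrays. Cxcl15, at 6.90 on E, lay below its own mean. Of the glandular markers Lif, a cytokine of implantation, was near background, above it on 3 CKO arrays and 0 Control arrays. It thus passed the filter only through the group where it was higher. By the probe used, 1 of 5, it differed by 0.62 (SE 0.19), with groups that did not overlap. The part of these cells in the Kit signal of any array was not tested.

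**Figure D4:**
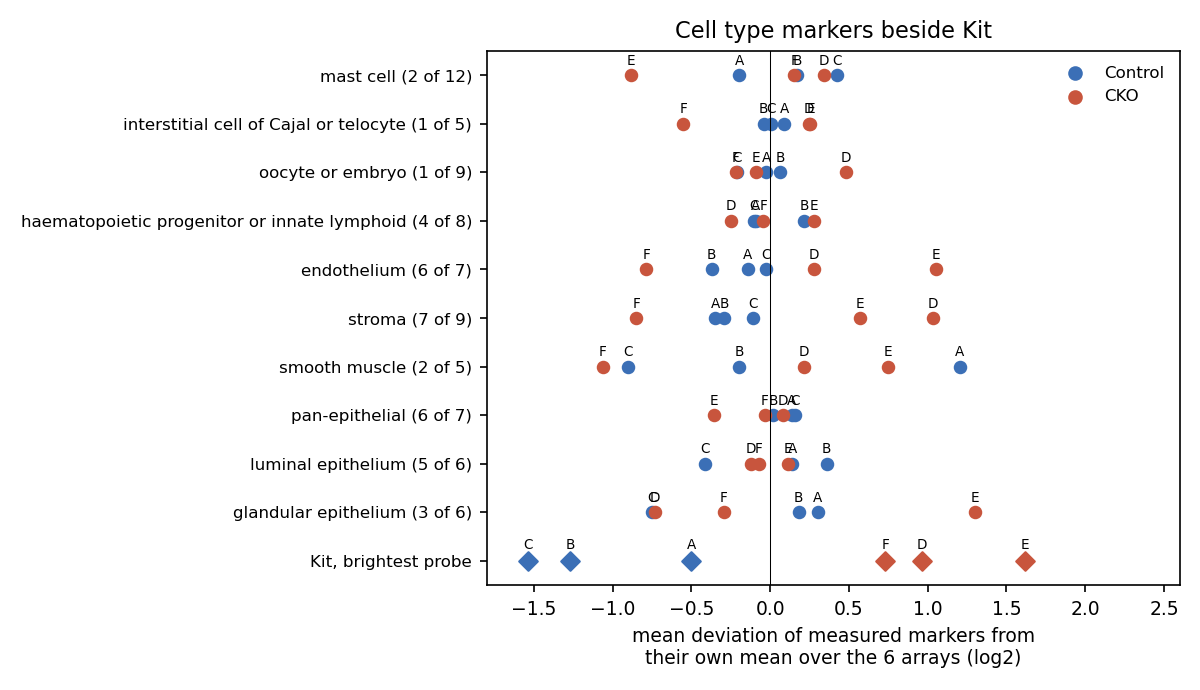
Mean deviation (log2) of the measured markers of each cell type from their own mean over the 6 arrays, one point per array, with the brightest Kit probe as diamonds in the last line; Control in blue, CKO in red, and measured over listed markers in brackets. For stroma, D (1.03) and E (0.57) lie right of all Control points and F (-0.85) left of them; for Kit, all CKO diamonds lie right of all Control diamonds.

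The genes whose profile over the 6 arrays was nearest to Kit were found by the root-mean-square difference between mean-centred log2 values, among 9984 genes with established names. Since Kit separates the groups, genes near it do so too, and their calls are no separate evidence. The nearest was Arrdc3, an arrestin-domain protein, at 0.24, where the median gene lay at 1.22. It had 8.02, 7.78 and 7.64 in Control and 10.03, 10.85 and 9.90 in CKO, and so shared the order E, D, F, A, B and C with Kit. It was followed by Fry (0.40), Mrps27, a mitochondrial ribosomal protein gene (0.40), Ampd3, an AMP deaminase gene (0.42), Pcdh17, a protocadherin gene (0.44), and Erdr1 (0.45). Fry was read by 5 probes, of which the other one above background on all arrays differed by -0.23 against 1.66 for its main probe, so the likeness holds for 1 Fry probe. When array E was left out, Arrdc3 was again the nearest and 4 of the 6 genes were again among the nearest 6; Pcdh17 and Erdr1 were not.

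**Figure D5:**
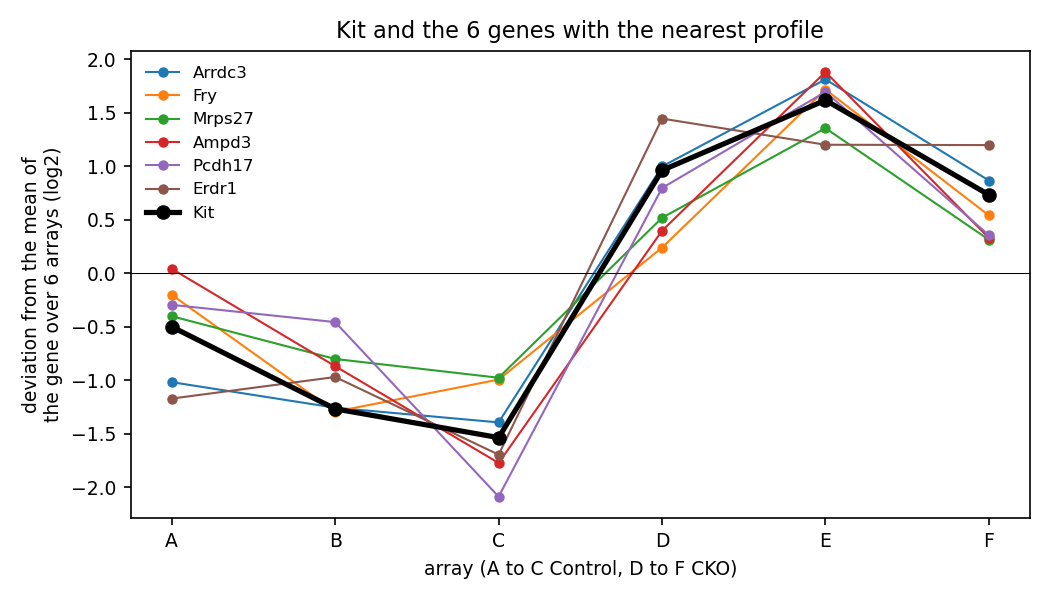
Deviation of log2 signal from each gene's mean over the 6 arrays for Kit (black) and the 6 genes nearest to it, with Control arrays A to C and CKO arrays D to F along the x axis. Arrdc3 follows Kit most closely, at a root-mean-square difference of 0.24; all 7 genes have their CKO arrays above their Control arrays.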

How the data were processed

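The deposited scanner tables give, per the file headers, a linear intensity averaged over beads for 45281 probes, neither background-subtracted nor normalised, its bead standard error, the number of beads and a detection p-value. The authors also deposited processed intensity values, linear and background-subtracted by their look, and every array has the same median, 6.4; no source used here names the software. Raw median signal ran from 79.7 to 87.6 and probes above background from 16620 to 17536; the number of arrays limits precision. Raw intensities were corrected by normexp with controls inferred from detection p-values, brought to shared quantiles and expressed as log2 values after adding 16 (neqc, limma 3.58.1, R 4.3.3), which shrinks differences of dim genes. Probes above background on at least 3 arrays were kept, named by RefSeq accession (29370 of all probes), by symbol (6953) or by the file (8940), and the brightest stood for its gene, except for Kit and Kitl, where each probe is given. Coordinates of the RefSeq gene table served only to order the genes beside Kit. Genes were tested two-sided by limma's lmFit and eBayes with Benjamini-Hochberg adjustment at 0.05, and this fit and adjustment were tested on simulated log2 values. Background correction, normalisation, the filter and the choice of probe were not part of that simulation.

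The members, the lists and the rule for named genes were chosen with earlier results of these data known. The rule took all Kit and Kitl probes, Bmpr1a, Pgr, the measured genes of the Kit family, in other lists up to 3 genes with the widest difference and no overlap where none passed, leading markers, and the 6 nearest profiles to Kit; the nearest to Kitl were not sought, since no Kitl probe was above background. Further genes of the lists are given for their known roles, chosen after their values were seen. Alternatives were other background corrections and normalisations, the deposited values, other filters, the mean of probes or every probe, robust fitting on a variance trend, weights per array, and dropping 1 array at a time with the normalisation kept.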

Additional observations from a re-analysis of the deposited data

How the results depend on the processing

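The Kit difference by ILMN_1246876 stayed within the spread between replicates under all 11 alternatives run on it and ran from 1.95 (without E) to 2.51 (without A). By the dimmer ILMN_1216898 it ran from 0.88, with no background correction, to 2.04 without D. Kit was called under 0 of 17 alternatives. Kitl, with no probe above background, was tested only with no filter and was not called there. The count of genes called higher was 2 as reported, 1 with normexp fitted without controls, with no background correction, median scaling, cyclic loess or the deposited values, 0 with no filter or the strict filter, 5 under array weighting, and between 0 and 1 when 1 array was dropped; genes called lower stayed at 0. List genes called stayed at 0 under all 17. Of 12 named genes, Bmpr1a and Pgr included, 8 kept their sign throughout. Array weights turned Pdgfb to -0.17 and Pdgfc to -0.27, and the deposited values turned Pdgfc to -0.0058. With single arrays left out Pdgfa ran from -0.039 to 0.31, Pdgfc from -0.20 to 0.12, Pgr from -0.80 to 0.056 and Pdgfb from 0.095 (without C) to 0.61 (without B). Over all alternatives Dusp4 ran from 0.87 to 2.06, Egr3 from 0.49 to 1.28, Socs3 from 0.78 to 1.61, Csf1r from 0.21 to 0.69 and Cblb from -0.40 to -0.10, the lowest sizes of Csf1r and Cblb coming with no background correction. The cause of these changes was not tested, except that filters change how many genes are tested. No paired analysis was possible because the sample titles name no pairs of Control and CKO arrays. Signal over background limits Kitl and the dimmer Kit probes, and 3 arrays a group limit every difference.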
